A study of Homo sapiens with 8 samples.

Results

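The 36 genes described here encode secreted proteins of the extracellular matrix: 13 collagen chains, 7 laminin chains, and 16 other glycoproteins, proteoglycans and enzymes. They were given as a list of symbols, not chosen by a threshold on these data. All 36 were found among the 18555 gene rows of the deposited count table by matching NCBI Gene IDs to RefSeq symbols. The 6 RNA-seq libraries came from cells labelled HepG2, a human line of liver tumour origin. Of these, 3 had received a control siRNA (siNC) and 3 an siRNA against XBP1 (siXBP1), and all 6 had then been exposed to 30 nM thapsigargin for 3 hours. The control libraries therefore carried the drug as well, and no untreated arm was analysed here. The labels name no separate culture for each library, so p-values reflect the scatter of these 6 samples only, and that scatter may be technical. The questions were which matrix transcripts these cells make, and whether these clients of the endoplasmic reticulum (ER) differ when XBP1 is knocked down.

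Matrix proteins are among the largest and most heavily modified cargo of the ER. Collagen chains enter it through the SEC61 channel, are hydroxylated on proline and lysine, fold into triple helices with the help of dedicated chaperones, and leave in enlarged carriers. Laminins are assembled there as trimers of an alpha, a beta and a gamma chain. Thapsigargin empties the calcium store of the ER and sets off the unfolded protein response, in which spliced XBP1 is the transcription factor that raises much of the machinery for folding, translocation and export.

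The libraries held 38209972 to 38890070 counts each, so that 3 counts, taken as the floor of detection, were 0.0771 to 0.0785 CPM (counts per 1000000 counts of the library). Such floors cover counting error only. XBP1 itself (gene ID 7494, chr22:28794560-28800569) had 21455, 19495 and 19240 counts with siNC against 11158, 11587 and 10554 with siXBP1, without overlap. It was reduced to 55.7% of its siNC level (log2 fold change -0.84, SE 0.08, edgeR adjusted p = 0.0331). The direction held with any 1 library left out, but the adjusted p from edgeR then ranged from 0.0327 to 0.475 and missed 0.05 without siNC replicate 2 (0.175) or 3 (0.213) or siXBP1 replicate 1 (0.475) or 2 (0.284). Hepatocyte markers went against the label of the cells. Of 10 listed, 5 had a row among the counts, and none of these reached a mean of 1 CPM. AFP stayed at or below 0.155 CPM in every library. The sum of the 5 was 0.360 to 0.591 CPM in siNC and 0.619 to 1.09 CPM in siXBP1. Of 7 epithelial markers 4 reached 1 CPM: the keratins KRT17 and KRT7 averaged 3364 and 1473 CPM and KRT8 and KRT18 1211 and 702. KRT19 (0.578) and CDH1 (0.380) were above the floor but under 1 CPM, and EPCAM (0.0257) averaged below the floor. Of 10 listed markers of fibroblasts and stellate cells, the classical makers of collagen, 8 had a row and 5 averaged at least 1 CPM. The 5 were DCN (29.1 CPM), PDGFRB (5.57), ACTA2 (4.42), RGS5 (1.85) and FAP (1.56). DES (0.513) and DPT (0.316) averaged less, and THY1 was at no more than 0.13 CPM. The summed level of the 8 was 39.2 to 45.7 CPM in siNC and 40.4 to 46.0 CPM in siXBP1, mostly DCN. The sums for epithelial markers were 5996 to 7920 and 5770 to 7315 CPM. For endothelial markers, of which 6 of 7 had a row, they were 15.7 to 18.7 and 14.3 to 16.7. For leukocyte markers, of which 3 of 6 had a row, they were 37.5 to 44.1 and 40.5 to 43.5, mostly CD68. Whether other cells add to the matrix transcripts was not tested, and in bulk RNA fewer cells of a type and less RNA per cell cannot be told apart.

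Start-site sequences are shown for 3 loci, and whether they bear on the estimates was not tested. COL7A1 had the lowest estimate of all matrix genes in siXBP1. COL5A1 was the gene whose siXBP1 libraries all lay below its siNC libraries. COL4A1 and COL4A2 are a divergent pair with similar values in both groups. The sequences are from RefSeq on GRCh38.p14 and read 5′ to 3′. For COL7A1 (gene ID 1294, minus strand, chr3:48595330-48595579) and COL5A1 (gene ID 1289, plus strand, chr9:134641553-134641802) the 250 bases before the start site are given. Capitals mark CCACG, the last part of the ER stress element. For the pair (chr13:110307158-110307283, plus strand) the 126 bases between both start sites are given, with capitals on CCAAT.
COL7A1: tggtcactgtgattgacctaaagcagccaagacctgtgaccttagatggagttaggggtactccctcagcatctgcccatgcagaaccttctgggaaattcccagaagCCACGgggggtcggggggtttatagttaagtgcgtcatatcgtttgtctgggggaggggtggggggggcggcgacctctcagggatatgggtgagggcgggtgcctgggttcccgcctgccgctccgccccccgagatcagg
COL5A1: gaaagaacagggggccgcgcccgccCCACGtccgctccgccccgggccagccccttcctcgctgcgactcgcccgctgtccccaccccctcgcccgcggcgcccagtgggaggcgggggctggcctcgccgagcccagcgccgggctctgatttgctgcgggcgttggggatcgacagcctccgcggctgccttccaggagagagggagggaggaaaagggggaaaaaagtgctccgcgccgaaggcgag
COL4A1-COL4A2: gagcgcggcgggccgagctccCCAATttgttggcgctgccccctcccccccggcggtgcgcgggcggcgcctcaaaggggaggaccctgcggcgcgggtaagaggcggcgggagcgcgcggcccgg

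The table of promoters covered 29 of the 36 matrix genes with 34 start sites. COL1A1, COL1A2, COL3A1, COL5A2, LUM, AGRN and LOXL2 were not matched. Both strands of the 250 bases before each start site were searched. The complete ER stress element, which is CCAAT and CCACG with 9 bases between them, was found before 0 of the 34 start sites and in 0.074% of all 35116 windows. The element TGACGTGG, bound by XBP1 in textbook accounts, was found before 0 of 34, against 0.612% of all windows. The motif CCACG, the last part of the ER stress element, was present before 12 of 34 start sites (35.3%) of 10 genes. Among these genes were COL7A1, COL5A1, COL12A1, FBN1 and HSPG2. The share of start sites was close to the 33.5% of all windows. Of 11 textbook XBP1s target genes, 9 had windows, 11 in all. CCACG stood in 9 of these windows (81.8%), the complete element in 1 and TGACGTGG in 0, so the longer motifs were rare or absent in this window for textbook targets too. CCAAT, the first part of the ER stress element, stood before 8 of 34 start sites (23.5%, against 32.0% of all windows). They included the start sites of COL4A1, COL4A2, FN1 and LAMB3. These are matches of letters only, and the XBP1s ChIP-seq samples were not analysed here.

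Of the 36 matrix genes, 29 averaged at least 1 CPM and 19 at least 100 CPM, against 68.3% and 12.3% of all rows in the table. Together the 36 genes took 0.859%, 0.834% and 0.832% of the counts with siNC, against 0.856%, 0.752% and 0.832% with siXBP1. The groups overlapped, with siXBP1 replicate 2 alone at the low end. The summed level was 8416 ± 147 CPM in siNC and 8130 ± 544 CPM in siXBP1 (SD, n = 3 each). The difference of -286 CPM was smaller than the SD of the siXBP1 libraries (exact permutation test, two-sided, p = 0.4, adjusted p = 0.4 over 3 sums compared, where 3 libraries against 3 cannot go below 0.1). Levels are not divided by transcript length, so they are compared between groups for 1 gene and not between genes.

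**Figure D1:**
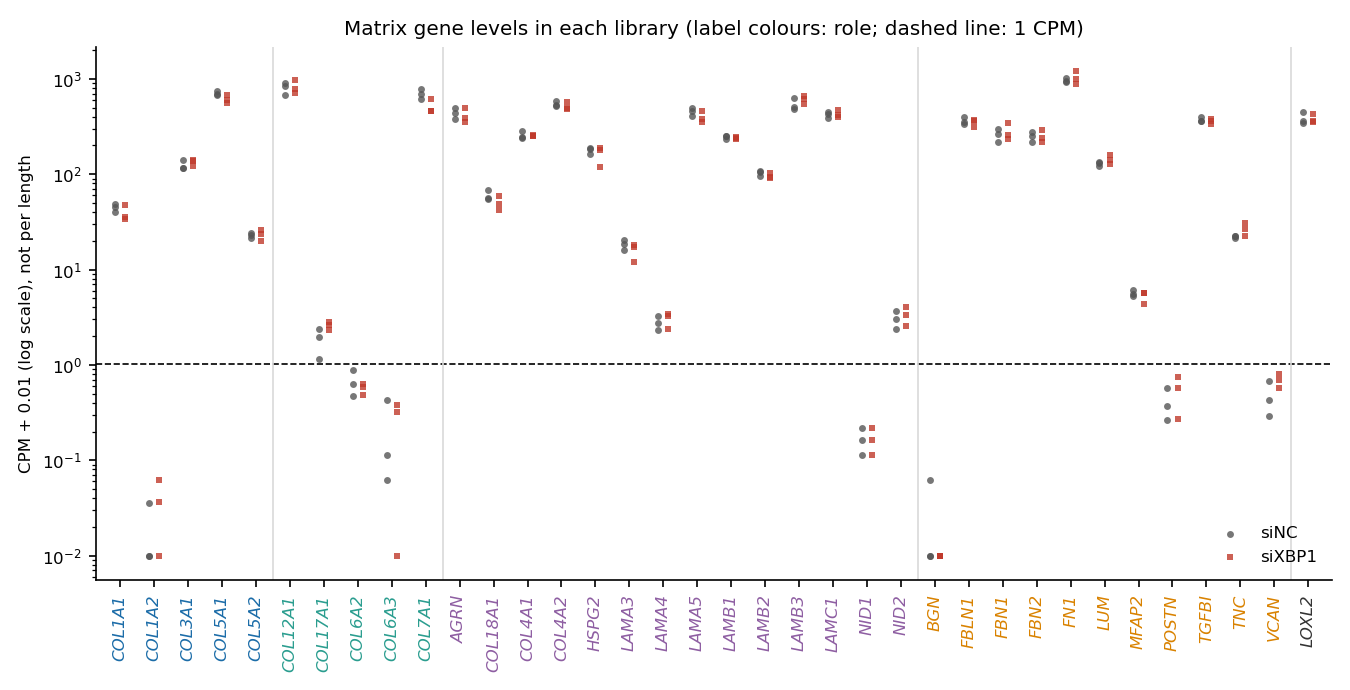
CPM of each of the 36 matrix genes in each library on a log scale (0.01 added), with siNC libraries as grey circles, siXBP1 libraries as red squares and a dashed line at 1 CPM. In the plot 29 genes average above the line, 7 below it, and the groups overlap for nearly every gene.

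Transcripts of 7 matrix genes were scarce. BGN (biglycan, a small proteoglycan) had 2 counts in siNC replicate 1 and 0 in the other libraries. COL1A2, the second chain of type I collagen, had 0, 0 and 1 counts in siNC and 2, 0 and 1 in siXBP1. Its usual partner COL1A1 was well above the floor, with 1744, 1557 and 1887 counts in siNC and 1837, 1375 and 1301 in siXBP1. Thus 1 chain of the common type I trimer was detected and the other was at the floor in all 6 libraries. Type VI collagen forms beaded microfilaments. Of its chains COL6A2 averaged 0.604 CPM, with 18 to 34 counts in each library, and COL6A3 0.208 CPM, and both were low but tested. COL6A1, which is not among the 36, had 24.1 ± 2.87 CPM in siNC and 22.8 ± 3.10 in siXBP1. Of the nidogens, which tie laminin to type IV collagen, NID1 had 8, 6 and 4 counts in each group, and NID2 averaged 3.16 CPM. POSTN (periostin) averaged 0.458 CPM and VCAN (versican) 0.566 CPM. BGN, COL1A2 and NID1 were removed by the filter on low counts, which left 33 matrix genes tested among 14337 genes.

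In the planned comparison, edgeR's quasi-likelihood test with group as the only term, no matrix gene passed an adjusted p of 0.05. In all, 1 of 14337 genes passed (0.00697%), and it was XBP1. At an unadjusted p under 0.05 there were 2 matrix genes of 33, COL7A1 and COL5A1, both lower, against 517 of all genes (3.61%), of which 244 were lower (1.7%). DESeq2 also passed 0 matrix genes, with 16 of all genes (0.115%). Estimates were higher for 16 and lower for 17 of the 33, and 47.2% of all genes had lower estimates. The median log2 fold change was -0.01 for the matrix genes and 0.01 for all genes tested. The 95% interval of the log2 fold change lay within 0.5 of 0 for 21 of the 33 matrix genes, against 57.1% of all genes, and within 1 of 0 for 28. Wider intervals belonged to COL6A2, COL6A3, COL17A1, POSTN and VCAN, all under 3 CPM. The siNC and siXBP1 libraries did not overlap for 2 matrix genes, COL5A1 and TNC, against 8.75% of all genes.

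The libraries of a group differed along a gradient that the groups do not explain. The first principal component of log2 CPM held 59.1% of the variance and placed siNC replicate 1 (score 0.643) and siXBP1 replicate 3 (-0.648) at opposite ends. Adding this score as a covariate gave 172 called genes (1.2% of those tested), of which 2 were matrix genes. COL7A1 was 1 of 70 lower genes (0.488%) and LAMB3 1 of 102 higher genes (0.711%). The score was computed from the same 6 libraries and is taken as known, so these adjusted p-values may be too small. Without both end libraries, 702 genes passed (4.87%), 209 of them higher (1.45%) and 493 lower (3.42%). LAMB3, among the higher ones, was the only matrix gene. The remaining scores were -0.29 and -0.08 in siNC and 0.24 and 0.14 in siXBP1. The groups thus separated along the component, and this fit cannot tell group from component. The end libraries were picked from the same data, so its adjusted p-values may also be too small.

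**Figure D2:**
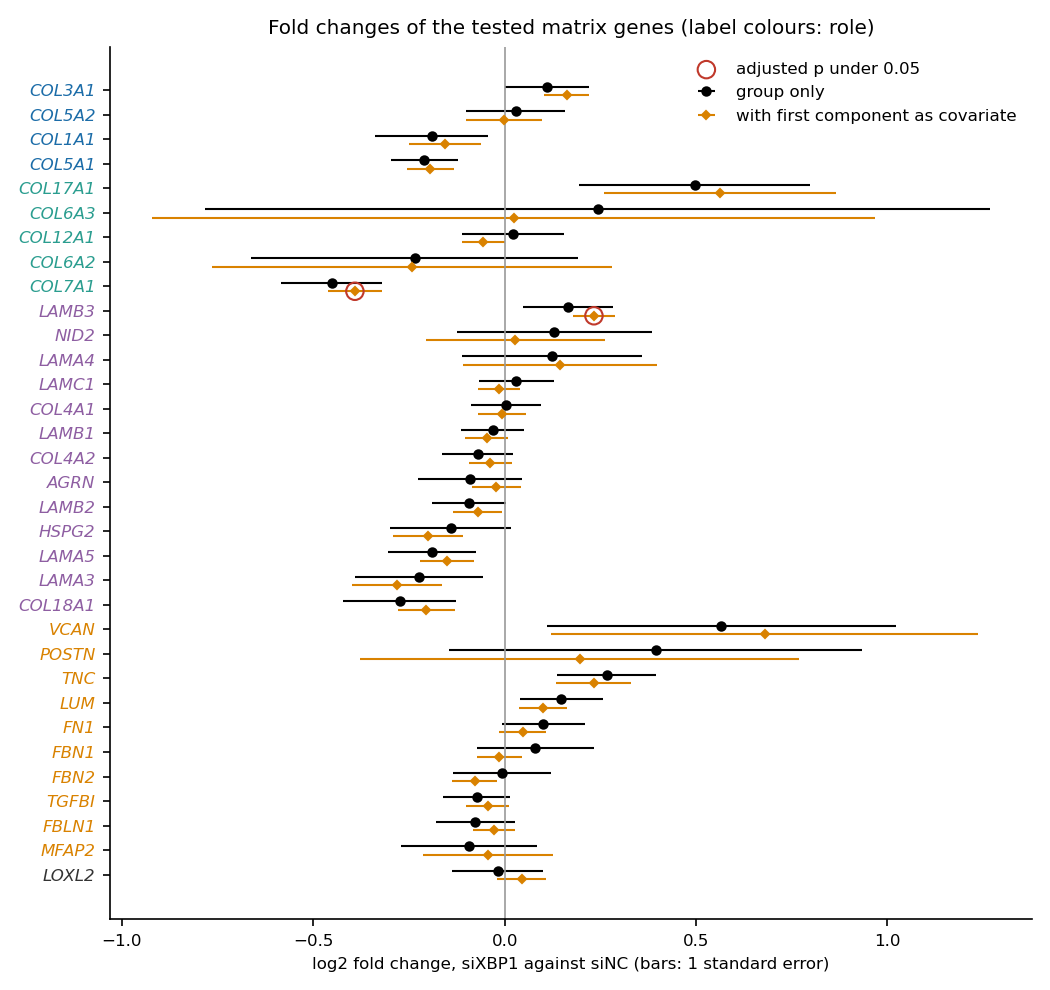
Log2 fold change of siXBP1 against siNC for the 33 tested matrix genes, with bars of 1 standard error. Black circles are from the fit with group alone and orange diamonds from the fit with the first component as covariate, in which COL7A1 and LAMB3 (ringed) passed. Most estimates lie within 0.5 of 0 and the widest bars belong to scarce transcripts.

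Fibrillar collagens form the rope-like fibrils of connective tissue. COL5A1 (chr9:134641803-134844843), a chain of type V collagen, which sits inside fibrils and limits their width, had 28838, 27121 and 26331 counts in siNC and 25930, 21531 and 23132 in siXBP1. All siXBP1 libraries were below all siNC libraries, with siXBP1 replicate 2 the lowest. Its level was 708 ± 30.2 CPM in siNC and 612 ± 59.6 in siXBP1, or 86.4% of siNC. The log2 fold change was -0.21 (95% interval -0.41 to -0.01, unadjusted p = 0.0389, edgeR adjusted p = 1.00), and with 1 library left out it lay between -0.28 and -0.16. COL5A2, the other type V chain in the list, had an estimate of 0.03 (95% interval -0.26 to 0.32), which includes the value of COL5A1, and the difference between the chains was not tested. Estimates were -0.19 (SE 0.15) for COL1A1 and 0.11 (SE 0.11) for COL3A1, the single chain of type III collagen, and their groups overlapped. COL3A1 and COL5A2 are neighbours on chromosome 2 (188974373 to 189012746 and 189031898 to 189441111).

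COL7A1 encodes type VII collagen, the anchoring fibril that fastens epithelial basement membrane to the tissue beneath. The gene lies on chromosome 3, from 48564073 to 48595329. It had 30466, 23731 and 26714 counts in siNC and 23532, 17701 and 17479 in siXBP1. In raw counts every siXBP1 library was below every siNC library. After scaling to library totals siXBP1 replicate 1 (611.6 CPM) was just above siNC replicate 2 (610.5 CPM), so the groups overlapped. The mean was 696 ± 86.5 CPM in siNC and 508.5 ± 89.3 in siXBP1, or 73.1% of siNC. Its log2 fold change of -0.45 (SE 0.13, 95% interval -0.75 to -0.16, unadjusted p = 0.00668) did not pass (edgeR adjusted p = 1.00, DESeq2 adjusted p = 0.501). With the first component as covariate COL7A1 fell by 0.39 in log2 units (SE 0.07, edgeR adjusted p = 0.0031). COL7A1 itself had a positive slope on that component (0.43) and was highest in siNC replicate 1, but it followed the score only in part. It was about equally low in siXBP1 replicates 2 (456 CPM, score 0.14) and 3 (457 CPM, score -0.65). Without both end libraries the value was -0.29 (edgeR adjusted p = 0.0692), and with 1 library left out it lay between -0.60 and -0.36.

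Other non-fibrillar collagens had estimates on both sides of 0, and their differences from COL7A1 were not tested. COL12A1 (chr6:75084326-75206053), which decorates the surface of fibrils, had 26507, 35047 and 31986 counts in siNC and 30082, 27252 and 36842 in siXBP1. It was lowest in siNC replicate 1, where COL7A1 was highest, and highest in siXBP1 replicate 3, and the log2 fold change was 0.02 (SE 0.13). COL17A1, a transmembrane collagen of hemidesmosomes, averaged 1.83 ± 0.638 CPM in siNC and 2.57 ± 0.254 in siXBP1 (0.50, SE 0.30). COL6A2 (-0.24, 95% interval -1.19 to 0.72) and COL6A3 (0.24, -2.05 to 2.54) were too scarce to place.

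Basement membranes are sheets of type IV collagen and laminin joined by nidogens and the proteoglycans perlecan and agrin. COL4A1 and COL4A2 supply the chains of the most widespread type IV collagen. COL4A2 had 22556, 20440 and 19852 counts in siNC and 21814, 19245 and 18302 in siXBP1, and its groups overlapped. The log2 fold change was -0.07 (SE 0.09) for COL4A2 and 0.00 (SE 0.09) for COL4A1, with intervals of -0.28 to 0.13 and -0.20 to 0.21. COL18A1, which carries the endostatin fragment, had 60.1 ± 7.54 CPM in siNC and 49.7 ± 8.83 in siXBP1 (-0.27, SE 0.15, unadjusted p = 0.0931). It was highest in siNC replicate 1 and lowest in siXBP1 replicate 3. Its span overlaps SLC19A1, which also had counts, and no strand setting of the counting was stated. Other overlaps with counted genes were FN1 with ATIC, HSPG2 with LDLRAD2, NID2 with RTRAF, LOXL2 with LOXL2-AS1 and BGN with HAUS7.

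LAMB3 encodes the beta chain of the epithelial laminin that anchors keratinocytes and binds type VII collagen. On chromosome 1 (209614870 to 209652425), it had 24372, 18770 and 19692 counts in siNC and 25313, 23926 and 20658 in siXBP1. The groups overlapped because siNC replicate 1 lay among the siXBP1 libraries, while the other siNC libraries were below all 3. With group alone the log2 fold change was 0.17 (SE 0.12, edgeR adjusted p = 1.00). With the first component as covariate LAMB3 rose by 0.23 (SE 0.05, edgeR adjusted p = 0.0273). Without both end libraries LAMB3 rose by 0.36 (SE 0.08, edgeR adjusted p = 0.00543), but group and component cannot be told apart there. LAMB3 had a positive slope on the score (0.28). LAMA3, the alpha chain of the same laminin, had 18.3 ± 2.23 CPM in siNC and 15.7 ± 3.12 in siXBP1 (-0.22, SE 0.17) and did not pass in any of these 3 fits.

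The chains of the broadly expressed laminins were abundant and stayed within the spread between libraries. LAMC1, their gamma chain, had 14967, 17551 and 16469 counts in siNC and 16008, 15451 and 18160 in siXBP1 (log2 fold change 0.03, SE 0.10). LAMB1 and LAMB2, alternative beta chains, had estimates of -0.03 (SE 0.08) and -0.09 (SE 0.10). LAMA5 (chr20:62309065-62367312), an alpha chain, had 19027, 15768 and 17853 counts in siNC and 17831, 13583 and 14415 in siXBP1. Here siXBP1 replicates 2 and 3 lay below all siNC libraries and siXBP1 replicate 1 among them (-0.19, SE 0.12, interval -0.45 to 0.07). LAMA4 averaged 2.89 CPM.

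Of the basement membrane proteoglycans, AGRN (agrin) had 19215, 14804 and 16843 counts in siNC and 18929, 15094 and 13407 in siXBP1 (-0.09, SE 0.14). HSPG2 (perlecan) had 6303, 7338 and 7113 counts in siNC and 6832, 4587 and 7268 in siXBP1. For HSPG2 siXBP1 replicate 2 stood below the other libraries, and the log2 fold change was -0.14 (SE 0.16). The same library held the lowest level of 9 of the 29 matrix genes above 1 CPM, against 13.7% of all 12668 tested genes at that level.

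Fibronectin (FN1, chr2:215360865-215436068) is a glycoprotein that binds integrins and collagens. It had 35597, 39582 and 36537 counts in siNC and 38722, 34242 and 45883 in siXBP1. The level was 961 ± 52.6 CPM in siNC and 1030 ± 160 in siXBP1, and the highest and the lowest library were both siXBP1. The log2 fold change was 0.10 (SE 0.11), and without siXBP1 replicate 3 it was -0.04. FBN1 and FBN2, the fibrillins that build elastic microfibrils, had estimates of 0.08 (SE 0.15) and -0.01 (SE 0.13). FBLN1, a fibulin of the same fibres, had 15636, 13184 and 13646 counts in siNC and 14158, 13968 and 11822 in siXBP1 (-0.08, SE 0.10). MFAP2, another microfibril protein, averaged 5.44 CPM (-0.09, SE 0.18).

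TNC (tenascin-C, chr9:115019575-115118157), a glycoprotein of wounds and tumour stroma, had 870, 841 and 861 counts in siNC and 1026, 872 and 1171 in siXBP1. No siXBP1 library was below a siNC library after scaling, although siXBP1 replicate 2 was almost level with them. Means were 22.1 ± 0.420 CPM in siNC and 26.6 ± 4.08 in siXBP1 (log2 fold change 0.27, SE 0.13, unadjusted p = 0.069, edgeR adjusted p = 1.00). Non-overlap with siXBP1 higher was found for 5.01% of all genes. With 1 library left out the value lay between 0.14 and 0.36. TGFBI, an adhesion protein induced by TGF-beta, had 15569, 14169 and 14043 counts in siNC and 13868, 14598 and 12800 in siXBP1 (-0.07, SE 0.09). LUM (lumican), a small proteoglycan on collagen fibrils, had 129 ± 7.38 CPM in siNC and 143 ± 16.6 in siXBP1 (0.15, SE 0.11). LOXL2, an enzyme that crosslinks collagen and elastin, had 17506, 13244 and 13943 counts in siNC and 16286, 13765 and 13718 in siXBP1. Its highest library was siNC replicate 1, and the log2 fold change was -0.02 (SE 0.12, interval -0.29 to 0.25).

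The highest levels of the matrix genes fell mostly in the libraries at the ends of the first component. Of 29 matrix genes with at least 1 CPM, 11 were highest in siNC replicate 1 and 10 in siXBP1 replicate 3, against 24.8% and 28.0% of all genes at that level. COL18A1, COL7A1, AGRN and MFAP2 had the highest slopes of log2 CPM on the score (0.46, 0.43, 0.39 and 0.30). FBN1, NID2, COL12A1 and FBN2 had the lowest (-0.50, -0.48, -0.41 and -0.36). Across the 29 genes the slope correlated with the genomic span of the gene at Pearson r = -0.40 (log span) and Spearman rho = -0.46. Over all 12663 genes at that level with a known span the values were -0.457 and -0.505. These are descriptions across genes that share the same 6 libraries, and genes are not independent replicates.

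**Figure D3:**
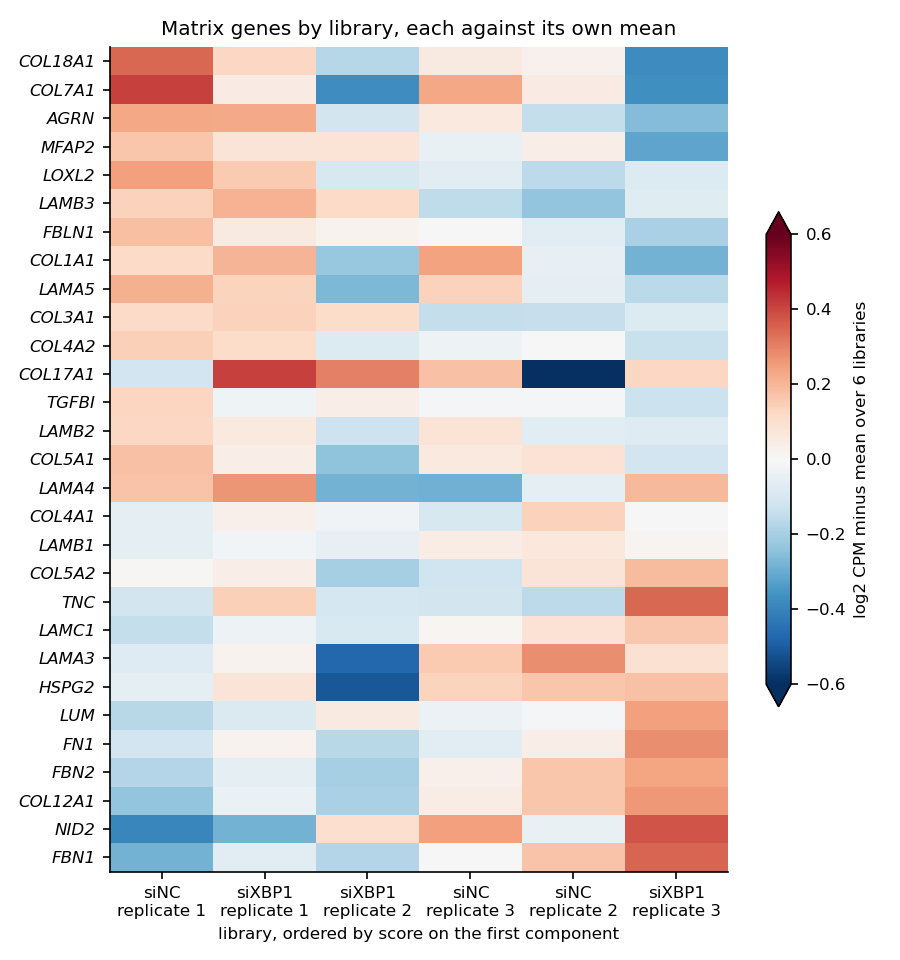
Log2 CPM of the 29 matrix genes that averaged 1 CPM or more, each relative to its own mean over 6 libraries (colour; values beyond the ends of the scale take the end colours). Libraries run from the highest to the lowest score on the first component, and genes from the highest to the lowest slope. The upper genes are highest in siNC replicate 1 and the lower ones in siXBP1 replicate 3, across both groups.

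The enzymes and chaperones that prepare collagen in the ER were set beside their clients. Of 24 genes for collagen folding and export, 22 were tested, 0 passed the planned test, and 18 had lower estimates (median log2 fold change -0.09). Among all genes tested 47.2% had lower estimates (median 0.01), and among the matrix genes 17 of 33. PPIB (cyclophilin B), a proline isomerase of the collagen hydroxylation complex, had 195.5, 176.4 and 163.1 CPM in siNC and 145.3, 152.4 and 138.0 CPM in siXBP1. The groups did not overlap, the log2 fold change was -0.29 (SE 0.10, unadjusted p = 0.0152), and PPIB passed as lower only with the first component as covariate (-0.26, edgeR adjusted p = 0.0325). P4HB, the disulfide isomerase that is also a subunit of prolyl hydroxylase, had 935 ± 71.1 CPM in siNC and 835 ± 48.2 in siXBP1 (-0.16, SE 0.09). SERPINH1 (HSP47), the collagen-specific chaperone, had an estimate of -0.15 (SE 0.10), and FKBP10, PLOD1 and P3H4 were near it (-0.14, -0.15 and -0.15). CRTAP and COLGALT1 were near 0 (-0.01 and -0.02). The 4 higher estimates were those of TMEM38B (0.29, SE 0.14), P3H2 (0.11), KLHL12 (0.08) and PLOD2. The transmembrane export factor MIA3 (TANGO1) had -0.02 (SE 0.16) and the lysyl hydroxylase PLOD2 0.01 (SE 0.18). Both passed as lower only without the end libraries (MIA3 -0.31, edgeR adjusted p = 0.0357, and PLOD2 -0.35, edgeR adjusted p = 0.0104). That fit cannot tell group from the first component, on which both had negative slopes (MIA3 -0.48, PLOD2 -0.60). The summed level of the list was 3720 ± 134 CPM in siNC and 3482 ± 51.1 in siXBP1, with no overlap between groups. An exact permutation test (two-sided) gave p = 0.1 (adjusted p = 0.3 over 3 sums). This is the smallest p possible here, so the test could not reach 0.05. The list was drawn up with earlier results of these libraries known. Its sum and its 18 lower estimates are therefore not independent evidence.

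All 11 textbook XBP1s targets listed for comparison had lower estimates in siXBP1 (median -0.32), and the groups did not overlap for 7 of them, against 3.74% of all genes that were lower without overlap. In the planned test 0 passed. DESeq2 passed 2, against 0.115% of all genes in either direction. The fit with the covariate passed 9, against 0.488% of all genes called lower. All of these targets were lower. The 9 were DNAJB9, DERL3, SYVN1, DNAJC3, ERO1B, EDEM1, SSR1, SEC61A1 and PDIA4. SEC61A1, the channel through which matrix proteins enter the ER, had 486.5 ± 15.2 CPM in siNC and 394 ± 17.5 in siXBP1 (-0.30, SE 0.08, edgeR adjusted p = 1.00). The lists were drawn up with earlier results of these libraries known, so the direction of the targets is not independent evidence.

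**Figure D4:**
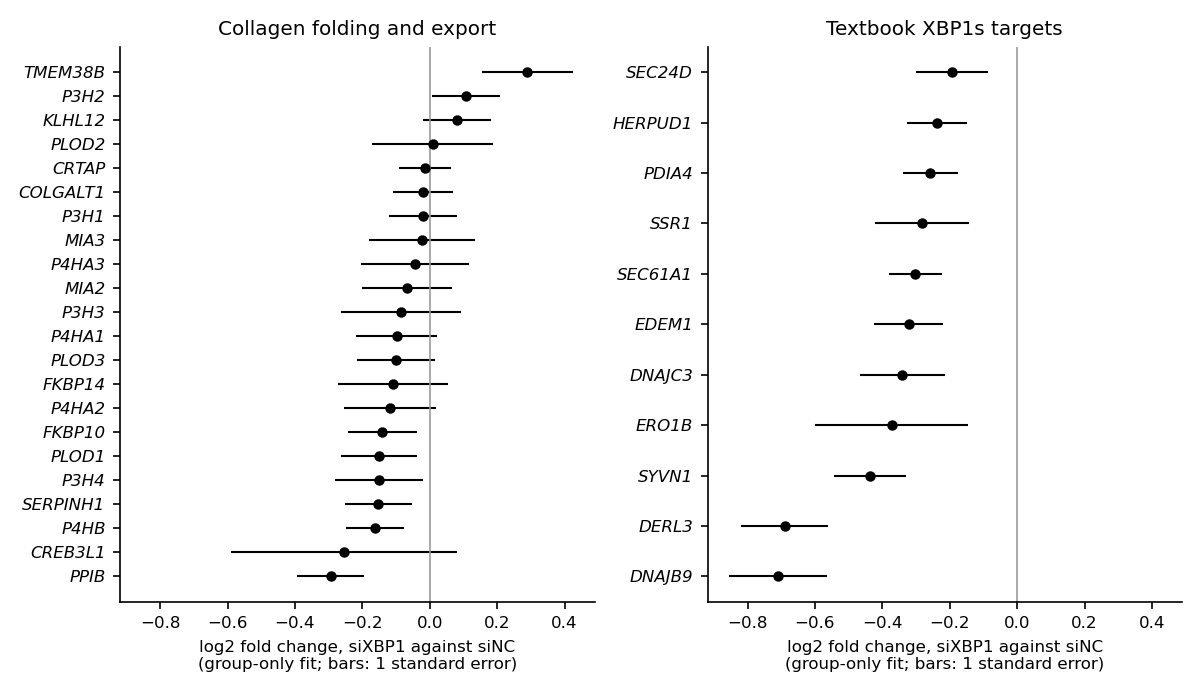
Log2 fold change of siXBP1 against siNC with bars of 1 standard error (fit with group alone) for 22 tested genes of collagen folding and export, left, and 11 textbook XBP1s targets, right. On the left 18 of 22 estimates lie below 0, all of them within 0.3 of it, and on the right all 11 do.

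Other matrix genes outside the 36 were counted from fixed lists. Of 33 further collagen and laminin genes, 18 were tested, 0 passed the planned test and 11 had lower estimates (median -0.12). COL4A6, a less widespread type IV chain, had 52.4 ± 3.79 CPM in siNC and 41.7 ± 1.03 in siXBP1 without overlap (-0.33, SE 0.10), and fell by 0.32 in the fit with the covariate (edgeR adjusted p = 0.0308). COL15A1, a basement membrane zone collagen (-0.23, SE 0.08), and LAMC3, a laminin gamma chain (-0.28, SE 0.12), were lower without overlap too, but passed in neither fit. These were 3 of 18 genes, against 3.74% of all genes. COL4A5, which can pair with COL4A6, had an estimate of 0.00 (SE 0.09). Of 46 other matrix glycoproteins and proteoglycans, 33 were tested, 0 passed the planned test, and 18 had higher and 15 lower estimates. THBS1 (thrombospondin-1) was higher without overlap (329 ± 18.4 and 400 ± 29.6 CPM), and SDC4, a syndecan, had 308 ± 31.8 and 371 ± 29.2 CPM with overlap. Both rose in the fit with the covariate (0.26 and 0.32, edgeR adjusted p = 0.0283 and 0.00324). Without overlap, but passing in neither fit, were EFEMP1, a fibulin (0.11, SE 0.08), and NTN4, a netrin of basement membranes (0.24, SE 0.10), both higher, and TNXB (tenascin-X), which was lower. TNXB was scarce, with 64, 20 and 14 counts in siNC and 3, 10 and 4 in siXBP1 (-2.48, SE 0.74, unadjusted p = 0.00758). Thus 3 of the 33 were higher and 1 lower without overlap, against 5.01% and 3.74% of all genes. Of 13 genes for crosslinking and propeptide processing, 11 were tested and 0 passed in either fit. The transglutaminase TGM2 had 10592, 9070 and 9412 counts in siNC and 10290, 9041 and 9297 in siXBP1 (-0.01, SE 0.09). The procollagen C-proteinase BMP1 had 117 ± 8.19 and 109 ± 9.97, and the lysyl oxidase LOX 74.6 ± 3.96 and 77.3 ± 19.1. PCOLCE2, an enhancer of procollagen cleavage, was higher without overlap (13.3 ± 0.468 and 15.5 ± 1.37 CPM, 0.22, SE 0.13). It was the only 1 of the 11 without overlap, against 8.75% of all genes in either direction and 5.01% higher.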

How the data were processed

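The submitters' processing notes name hg38, STAR 2.5.2a, Subread and featureCounts 1.5.0. They state neither strandedness nor annotation. The deposited values are whole-number read counts per NCBI Gene ID, not normalized, and 18526 of 18555 IDs were named from RefSeq (GRCh38.p14), which also gave all gene coordinates. Groups and replicate numbers come from sample titles. A short text among the files and the 2 ChIP-seq samples were not analysed here.

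Genes kept by filterByExpr were normalized with TMM and tested with edgeR 4.0.16 (R 4.3.3, quasi-likelihood, two-sided, group only, 4 residual degrees of freedom), with Benjamini-Hochberg adjustment over all 14337 genes. DESeq2 1.42.0 and limma 3.58.1 (voom) were alternatives. An SE is the fold change divided by the square root of F. CPM are counts over library totals. The first component used log2 CPM (prior count 0.5) of 11528 genes averaging 100 counts or more; slopes used log2(CPM + 0.5). The group-only fit was tested on simulated counts with known changes and without the gradient between libraries. The covariate and end-library fits were not simulated.

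Members and lists were chosen with earlier results of these data known. Counts per library are printed for XBP1, for matrix genes passing the planned fit or the covariate fit or without overlap, and for the 12 with the highest mean CPM. From each further list the text takes genes passing either fit, otherwise the 3 most abundant, and may add textbook XBP1s targets and genes without overlap. Other values (COL1A1, HSPG2, NID1 and the scarce genes by library, genes named as partners, P4HB, SERPINH1, MIA3, PLOD2, FKBP10, PLOD1 and P3H4) were chosen after they were seen. So were those of CRTAP, COLGALT1, TMEM38B, P3H2 and KLHL12. Planned protein features and levels per transcript length were not used here.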

Additional observations from a re-analysis of the deposited data

How the results depend on the processing

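With another normalization, filter or tool, with halved counts, with a replicate block or with 1 library left out, 0 matrix genes passed in 15 alternative fits, and an adjusted p of 0.01 gave 0 as well. The exceptions were the covariate fit (2 matrix genes) and the fit without both end libraries (1). The median log2 fold change of the matrix genes lay between -0.05 and 0.03 over 17 alternatives, and 14 to 23 had lower estimates, both extremes with 1 library left out. The number of all genes passing was 0 with upper-quartile factors, 16 with DESeq2, 172 with the covariate, 702 without both end libraries and 0 at an adjusted p of 0.01, and ranged from 0 to 1 with 1 library left out (0 without siNC replicate 2 or 3 or siXBP1 replicate 1 or 2). XBP1 kept its direction in all 17 (-0.88 to -0.76) but did not pass in 5 of them. For collagen folding and export, 2 genes passed without the end libraries and 1 with the covariate. For other collagens and laminins 1 passed with the covariate. For other matrix glycoproteins the numbers were 1 and 2. With a replicate block 0 matrix genes passed and COL7A1 had -0.46 (adjusted p = 0.357). Deviations of same-numbered libraries correlated at 0.596, -0.359 and 0.425. With so few libraries these mixed values cannot decide whether the numbers pair the samples. Of 221 values of 13 named matrix genes under alternatives, 20 values of 8 genes changed sign, none of them called. Levels of 0.5 or 5 CPM in place of 1 gave 31 or 26 matrix genes in place of 29. Protein features and levels per length could not be run. Depth limits BGN, COL1A2, NID1 and the 5 genes with wide intervals.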
